A study of Mus musculus with 32 samples.

Results

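The genes described here are 10 that write, anchor or erase methylation of lysine 4 of histone H3 (H3K4) in the mouse. They are the 6 methyltransferase genes Kmt2a, Kmt2b, Kmt2c, Kmt2d, Setd1a and Setd1b, the 2 core subunit genes Wdr5 and Ash2l that all of these enzymes share, and the 2 demethylase genes Kdm5a and Kdm5b. They were chosen by name, and all 10 were found among the 55385 genes listed in each of 16 RNA gene tables. Total RNA was sequenced from wild-type embryos made by in vitro fertilization of B6D2F1/J eggs with B6D2F1/J sperm, both from mice 6 to 8 weeks old, and cultured in KSOM medium. Embryos were given A-485, a small molecule that blocks the catalytic activity of the H3K27 acetyltransferases CBP and p300, at 10 µM between 4 and 20 h post in vitro fertilization (hpi), or DMSO, and were collected as zygotes, early 2-cell or late 2-cell embryos. The labels do not give the hour of collection, and zygotes may have been collected before the window ended, after a shorter exposure. In a second experiment embryos were given trichostatin A (TSA), an inhibitor of histone deacetylases, at 50 nM between 8 and 28 hpi, or DMSO, and were collected at the late 2-cell stage. This made 8 groups of 2 libraries each. The labels do not say whether the 2 libraries of a group came from separate cultures, so the p-values below measure only the spread between these libraries, and the number of embryos in a library is not given in the sources used here.

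Methylated H3K4 marks promoters and enhancers in most cells. The 6 methyltransferases act in separate complexes of the MLL and SET1 families, and each complex needs WDR5 and ASH2L for full activity. Growing mouse oocytes carry unusually broad domains of trimethylated H3K4 that depend on KMT2B, also named MLL2. These domains persist after fertilization and are removed in 2-cell embryos around the time when the embryo begins large-scale transcription of its own genome, and KDM5A and KDM5B are known for this removal. In these embryos the RNA of a gene can be inherited from the egg, made by the embryo, or both.

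Promoter sequences are shown here for 3 members that differed in where open chromatin was listed by ATAC-seq. Kdm5b had a listed peak at this place in early 2-cell embryos under both DMSO and A-485, Wdr5 had one in early 2-cell embryos under A-485, and Kmt2d had none in any of 4 lists. The sequences are the bases before the start site from RefSeq (GRCm38.p6), shortened for Kdm5b to end before the annotated GENCODE M21 first exon. Capitals mark the letters GGGCGG, the GC box, on either strand.
Kdm5b, chr1:134559928-134560170, plus strand, 243 bases: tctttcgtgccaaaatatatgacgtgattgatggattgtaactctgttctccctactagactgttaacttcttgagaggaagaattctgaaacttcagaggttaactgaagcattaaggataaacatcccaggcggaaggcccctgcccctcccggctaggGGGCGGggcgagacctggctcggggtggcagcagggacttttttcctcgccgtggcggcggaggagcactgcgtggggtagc
Wdr5, chr2:27514897-27515146, plus strand, 250 bases: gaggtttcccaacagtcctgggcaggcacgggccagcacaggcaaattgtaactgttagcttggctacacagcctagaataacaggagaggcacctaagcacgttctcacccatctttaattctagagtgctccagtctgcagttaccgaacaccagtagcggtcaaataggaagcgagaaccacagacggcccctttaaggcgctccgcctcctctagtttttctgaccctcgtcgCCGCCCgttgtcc
Kmt2d, chr15:98871206-98871455, minus strand, 250 bases: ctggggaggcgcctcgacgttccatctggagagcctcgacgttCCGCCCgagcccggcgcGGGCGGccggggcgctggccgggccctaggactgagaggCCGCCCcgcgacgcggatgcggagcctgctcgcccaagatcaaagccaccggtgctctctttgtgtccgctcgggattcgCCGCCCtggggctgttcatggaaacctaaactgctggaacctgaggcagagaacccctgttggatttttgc
The Kdm5b and Wdr5 stretches hold 1 GC box each, and the Kmt2d stretch holds 4.

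The sum of expected counts in a library ran from 13206163 to 32585987 (median 22730517.5), and a member had between 49 counts (Kdm5b in a zygote library) and 62209 counts (Kmt2c in an early 2-cell library). Levels of 1 gene across groups are given as CPM, counts scaled to the library total after trimmed-mean correction, and levels of different genes as FPKM, which divides by length. The sum of FPKM over all genes varied 2.56-fold between libraries, so changes of a member between groups are read from CPM, and FPKM is compared between groups only for marker sums and for likeness of pattern, which carry this difference of scale. All 8 oocyte and egg marker genes reached an FPKM of 1 in at least 1 library of every group. Figla, the lowest of these, was at 0.16 and 1.58 in the late 2-cell DMSO libraries of the A-485 experiment. The summed FPKM of 6 marker genes of 2-cell embryos was 396 to 456 in early 2-cell DMSO libraries and 6.89 to 7.99 under A-485. The 13 genes encoded by mitochondrial DNA took 5.35 to 5.43% of counts in late 2-cell A-485 libraries and 2.35 to 2.45% in their DMSO libraries. The number of embryos in a library is not given, so fewer embryos and less RNA per embryo cannot be told apart. A gene is called changed when edgeR's quasi-likelihood test gives an adjusted p under 0.05 and the change is at least 2-fold. Its mean FPKM must also be at least 1 in a group compared. The adjustment ran over all genes that passed the filter on low counts. Below, shares, ranks and medians of all genes, or of all genes tested, cover only genes that also reached this mean FPKM. All 10 members passed the filter on low counts in every comparison.

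The methyltransferase genes Kmt2c and Kmt2d, whose enzymes place monomethylation at enhancers, had the highest FPKM of the 10 in each of the 8 groups. The order by FPKM rests on the transcript length estimated for each gene. For Kmt2d this was 8227 to 11204 bases, where its longest annotated transcript has 19823 bases. In zygote DMSO embryos Kmt2c had a mean of 158 and Kmt2d of 157 FPKM, and the order went on with Wdr5 at 133, Kmt2b at 61.5, Setd1a at 22.7, Setd1b at 22.1, Ash2l at 21.5, Kmt2a at 3.45, Kdm5a at 2.33 and Kdm5b at 0.56 FPKM. The pairs Kmt2c and Kmt2d, Setd1a and Setd1b, Setd1b and Ash2l, and Kmt2a and Kdm5a overlapped between libraries there, and the other neighbours did not.

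By the late 2-cell stage the order had changed through the demethylases. In late 2-cell DMSO embryos of the A-485 experiment Kdm5b came next after the Kmt2c and Kmt2d pair, at 127 FPKM, below Kmt2d at 179 and above Wdr5 at 99.6. Kdm5a followed at 97.95 FPKM, in a range that overlapped with Wdr5, and Kmt2a stood last at 1.09. The DMSO embryos of the TSA experiment gave the same order, with Kdm5b at 140 FPKM. In late 2-cell embryos given A-485, Kdm5b came last but for Kmt2a, at 13.4 FPKM, in a range that overlapped with Ash2l at 15.2, and in those given TSA it came after Wdr5, at 28.6.

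**Figure D1:**
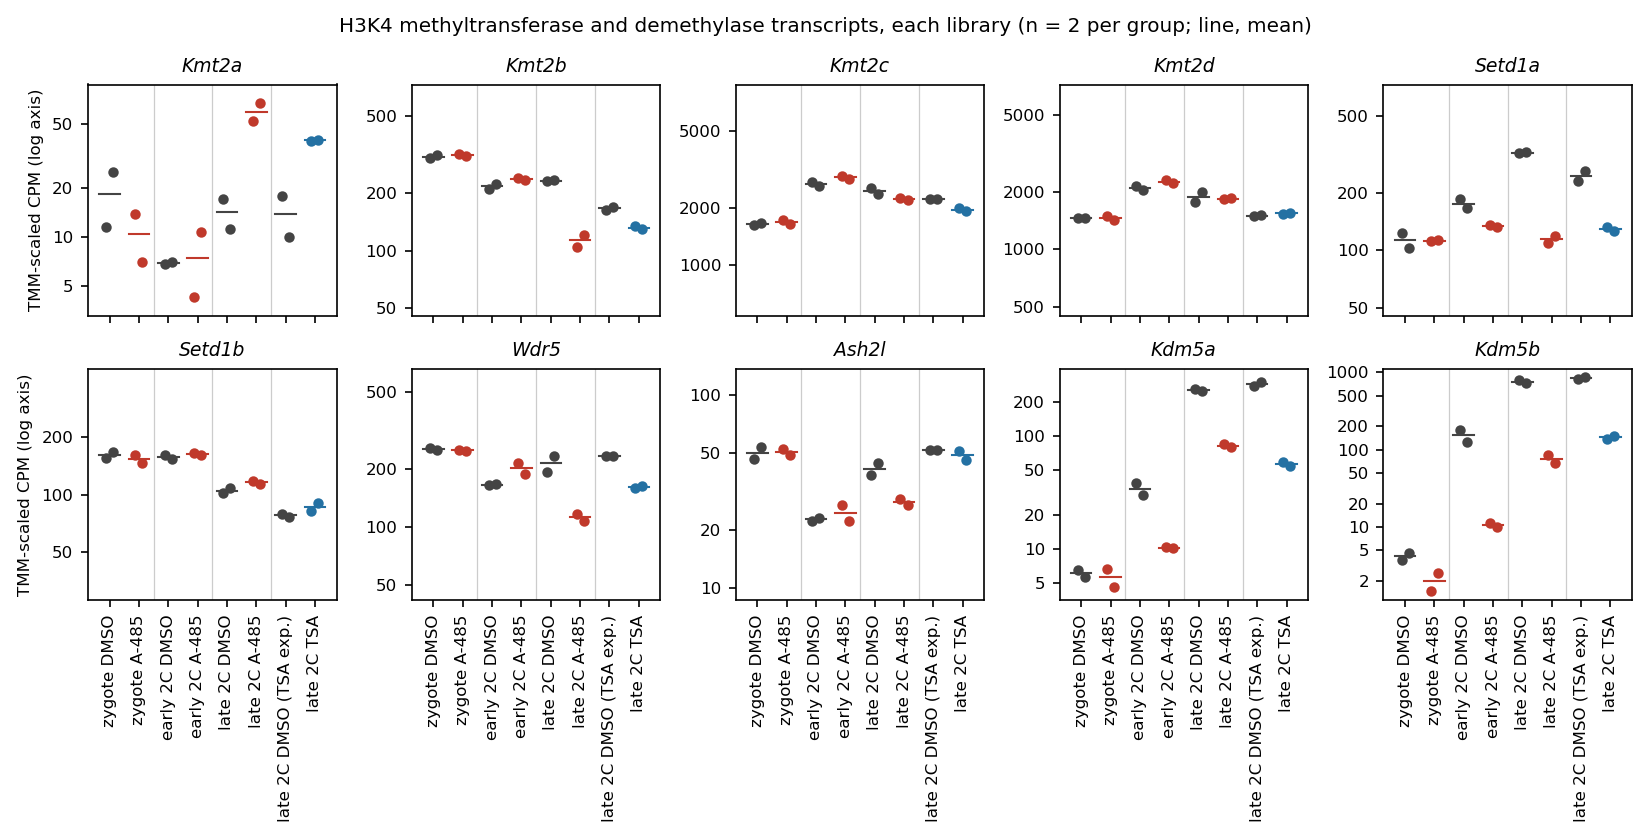
Level of each of the 10 members in the 16 RNA libraries, as CPM after trimmed-mean scaling on a log axis, with 1 panel per gene, a point per library and a line at the group mean. Kdm5a and Kdm5b climb over the stages in DMSO embryos and lie lower under A-485 and TSA, while Kmt2c and Kmt2d stay between 1421 and 2931 CPM in all libraries.

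Kdm5b, which encodes a demethylase of di- and trimethylated H3K4, was nearly absent from zygotes and was among the more abundant members by the late 2-cell stage. It measured 3.75 and 4.54 CPM in the zygote DMSO libraries, 180 and 128 CPM in the early 2-cell DMSO libraries, and 789 and 721 CPM in the late 2-cell DMSO libraries of the A-485 experiment. The 3 stages did not overlap. Kdm5b rose 36.7-fold from zygote to early 2-cell (log2 fold change 5.20 ± 0.18 SE, adjusted p = 1.501e-10, edgeR), and 4.91-fold from early to late 2-cell (2.30 ± 0.15, adjusted p = 2.949e-07). Kdm5a, its paralog with the same activity, measured 6.45 and 5.64 CPM in zygotes, 38.2 and 29.8 CPM in early 2-cell embryos, and 257 and 247 CPM in late 2-cell embryos. These groups did not overlap either. Kdm5a rose 5.55-fold over the first step (2.47 ± 0.20, adjusted p = 2.84e-07) and 7.42-fold over the next (2.89 ± 0.15, adjusted p = 6.915e-08).

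Between zygote and early 2-cell DMSO embryos, 2 of 10 members were called higher and 2 lower, where 16.9% of all genes tested were called higher and 22.5% lower. The 2 lower were Ash2l, the core subunit, and Kmt2a, which encodes MLL1. Ash2l measured 46.7 and 53.7 CPM in zygotes and 22.2 and 23.1 CPM in early 2-cell embryos, with no overlap, and fell by 1.17 on the log2 scale (± 0.14 SE, adjusted p = 1.066e-05, edgeR). Kmt2a measured 11.6 and 25.1 CPM in zygotes and 6.79 and 7.00 CPM in early 2-cell embryos, and fell by 1.43 (± 0.31, adjusted p = 0.001828). The Kmt2a call rested on zygote DMSO replicate 2: without that library its log2 fold change was -0.79 (adjusted p = 0.07178).

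Most other members moved by less than 2-fold over that step, in both directions. Kmt2c (0.68 ± 0.06, adjusted p = 4.602e-07, edgeR), Kmt2d (0.50 ± 0.06, adjusted p = 9.873e-06) and Setd1a (0.62 ± 0.10, adjusted p = 0.0002622) rose relative to all genes. By mean TPM, a length-scaled measure with an equal total per library, none of these genes rose. It went from 196 to 191 for Kmt2c, from 195 to 157 for Kmt2d and from 28.2 to 22.9 for Setd1a. With libraries scaled on the 13 mitochondrial genes these 3 turned to -0.65, -0.83 and -0.71, where the median of all genes was itself -1.45, and 7 members were then called, 5 lower and 2 higher. Wdr5 fell by 0.64 and Kmt2b by 0.53 on the log2 scale (adjusted p = 1.439e-05 and 7.045e-05). For Setd1b the change was -0.06 (± 0.09, adjusted p = 0.6292), and its libraries overlapped between the stages.

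From early to late 2-cell DMSO embryos, 3 of 10 members were called higher and none lower, where 23.6% of all genes tested were called higher and 13.2% lower. Beside the 2 demethylases this was Kmt2a, at 6.79 and 7.00 CPM early and 17.2 and 11.2 CPM late (1.04 ± 0.29, adjusted p = 0.01419, edgeR). Without late 2-cell DMSO replicate 1 its log2 fold change was 0.70 (adjusted p = 0.1309). Setd1a, the catalytic subunit of a SET1 complex that places trimethylation at active promoters, rose by 0.88 on the log2 scale, from 184 and 166 to 320 and 325 CPM (± 0.11, adjusted p = 4.344e-05). Ash2l rose back by 0.87 (adjusted p = 0.001836), and Setd1b fell by 0.58 (adjusted p = 0.002134).

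Over the whole interval from zygote to late 2-cell DMSO embryos, 3 of 10 members were called higher and none lower, where 28.5% of all genes tested were called higher and 28.5% lower. The 3 were Kdm5b, 176-fold higher (log2 fold change 7.46 ± 0.15, adjusted p = 1.343e-10, edgeR), Kdm5a, 40.2-fold higher (5.33 ± 0.14, adjusted p = 2.985e-10), and Setd1a, 2.76-fold higher (1.46 ± 0.11, adjusted p = 7.149e-07). On mitochondrial scaling 7 members were called, 5 lower and 2 higher. The 2 demethylases kept log2 fold changes of 6.15 and 4.03, Setd1a came to 0.16 (adjusted p = 0.3489), and Kmt2c and Kmt2d turned from 0.52 and 0.31 to -0.79 and -0.99.

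The effect of A-485 on these genes was then compared stage by stage. In zygotes no member was called, where 0.101% of all genes tested were called lower and 0.00839% higher. Over all genes, edgeR called 13 and DESeq2 called 12, and 1073 had an unadjusted p under 0.05. The largest difference among members was that of Kdm5b, at 3.75 and 4.54 CPM under DMSO and 1.47 and 2.52 CPM under A-485, which gave a log2 fold change of -1.05 (± 0.33 SE, adjusted p = 0.8302). Its libraries did not overlap, but the gene lay under an FPKM of 1 in both groups. The change of Kmt2a was -0.80 (± 0.32, adjusted p = 0.8302), with 11.6 and 25.1 CPM under DMSO and 13.9 and 7.03 CPM under A-485. It was called lower when DMSO replicate 1 was left out (log2 fold change -1.26) or A-485 replicate 1 was left out (-1.38), so its call depended on which libraries were kept. With all libraries it passed the edgeR test under the 2-fold limit in 2 alternatives. These were no filter on low counts (-0.81, adjusted p = 0.001081) and the replicate number as a block (-0.77, adjusted p = 0.003786). The remaining 8 members lay within 0.12 of no change on the log2 scale.

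In early 2-cell embryos the 2 demethylases were lower under A-485. Of 10 members 2 were called lower and none higher, where 12.7% of all genes tested were called lower and 0.647% higher. Kdm5b measured 180 and 128 CPM under DMSO and 11.3 and 9.86 CPM under A-485, and was 15.2-fold lower (log2 fold change -3.93 ± 0.17 SE, adjusted p = 1.029e-08, edgeR). Kdm5a measured 38.2 and 29.8 CPM under DMSO and 10.3 and 10.2 CPM under A-485, and was 3.46-fold lower (-1.79 ± 0.19, adjusted p = 3.315e-05). Neither gene overlapped between the groups, and for both genes the A-485 libraries lay above their zygote DMSO libraries. Among all genes tested at this stage, 5.09% had a lower log2 fold change than Kdm5b and 11.9% a lower one than Kdm5a.

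Among the methyltransferases of early 2-cell embryos, Setd1a fell by 0.45 on the log2 scale (± 0.09 SE, adjusted p = 0.005235, edgeR), from 184 and 166 CPM to 136 and 133 CPM. On mitochondrial scaling its adjusted p was 0.05751. Kmt2c, Kmt2d, Kmt2b, Setd1b and Kmt2a had log2 fold changes between -0.01 and 0.07, and none passed the test. The A-485 libraries of Kmt2a differed most, at 4.25 and 10.7 CPM, and its value of 0.06 was 0.57 without A-485 replicate 1 and -0.75 without replicate 2. The core subunits had values of 0.22 (Wdr5, adjusted p = 0.1494) and 0.05 (Ash2l, adjusted p = 0.9031). In the same libraries the 6 markers of 2-cell embryos moved with the 2 demethylases, as given above, and their part in the result was not tested.

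In late 2-cell embryos the effect of A-485 took in methyltransferases as well. Of 10 members 4 were called lower and 1 higher, where 23.8% of all genes tested were called lower and 15% higher. Kdm5b measured 789 and 721 CPM under DMSO and 85.5 and 67.0 CPM under A-485, and was 10.1-fold lower (log2 fold change -3.34 ± 0.14 SE, adjusted p = 1.002e-08, edgeR). Kdm5a measured 257 and 247 CPM under DMSO and 83.8 and 79.5 CPM under A-485, and was 3.17-fold lower (-1.66 ± 0.12, adjusted p = 5.766e-07). Both genes were therefore lower than in their DMSO libraries with no overlap, though higher than in early 2-cell embryos given the same inhibitor.

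Setd1a measured 320 and 325 CPM under DMSO and 109 and 119 CPM under A-485, and was 2.89-fold lower (-1.53 ± 0.12 SE, adjusted p = 7.043e-07, edgeR). Its A-485 libraries thus lay in the range of the zygote libraries, at 103 and 123 CPM under DMSO. Kmt2b, which encodes MLL2, measured 231 and 232 CPM under DMSO and 105 and 121 CPM under A-485, and was 2.1-fold lower (-1.07 ± 0.12, adjusted p = 2.674e-05). Scaled on total counts, Kmt2b fell by 0.88, just under the 2-fold limit, and without A-485 replicate 1 it fell by 0.97.

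Kmt2a was the member called higher. It measured 17.2 and 11.2 CPM under DMSO and 51.8 and 67.1 CPM under A-485, 4.07-fold higher (2.03 ± 0.24 SE, adjusted p = 3.777e-05, edgeR), and 1.06 higher on the log2 scale with mitochondrial scaling. Of the other methyltransferases 3 did not pass the test, with log2 fold changes of -0.17 for Kmt2c (adjusted p = 0.09126), -0.06 for Kmt2d (adjusted p = 0.5725) and 0.11 for Setd1b (adjusted p = 0.5441). With mitochondrial scaling Kmt2c came to -1.15 (adjusted p = 1.285e-08) and Kmt2d to -1.05 (adjusted p = 5.459e-07), which made both called lower, and Setd1b turned to -0.87.

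Wdr5, the adaptor that holds the core of these complexes together, measured 193 and 234 CPM under DMSO and 117 and 107 CPM under A-485. It fell by 0.97 on the log2 scale, slightly under 2-fold (± 0.14 SE, adjusted p = 0.0001315, edgeR), and came to -1.06 without DMSO replicate 1 and -1.03 without A-485 replicate 1. Ash2l went from 38.4 and 44.4 to 28.9 and 26.8 CPM, a log2 fold change of -0.61 (± 0.20, adjusted p = 0.0297). It passed the test in 1 of 4 fits that left out a library, and missed it without DMSO replicate 1 (adjusted p = 0.06363), DMSO replicate 2 (0.1882) or A-485 replicate 2 (0.0721), and also on total counts (0.1218) and by DESeq2 (0.05801). With mitochondrial scaling 9 members were called, 8 lower and 1 higher, and the median of all genes was then -0.96. In the same libraries the summed FPKM of the 8 oocyte markers was 1395 to 1405 under A-485 and 726 to 778 under DMSO, that of the 6 markers of 2-cell embryos was 55.6 to 58.5 and 240.3 to 264, and the mitochondrial share of counts was also higher under A-485, as given above. Of the 8 oocyte markers Zp3 went against the sum, at 10.25 to 12.21 FPKM under A-485 and 15.48 to 20.44 under DMSO. The FPKM sum of all genes was 1849898 to 2045551 under A-485 and 1287260 to 1438064 under DMSO. Their part in these results was not tested.

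**Figure D2:**
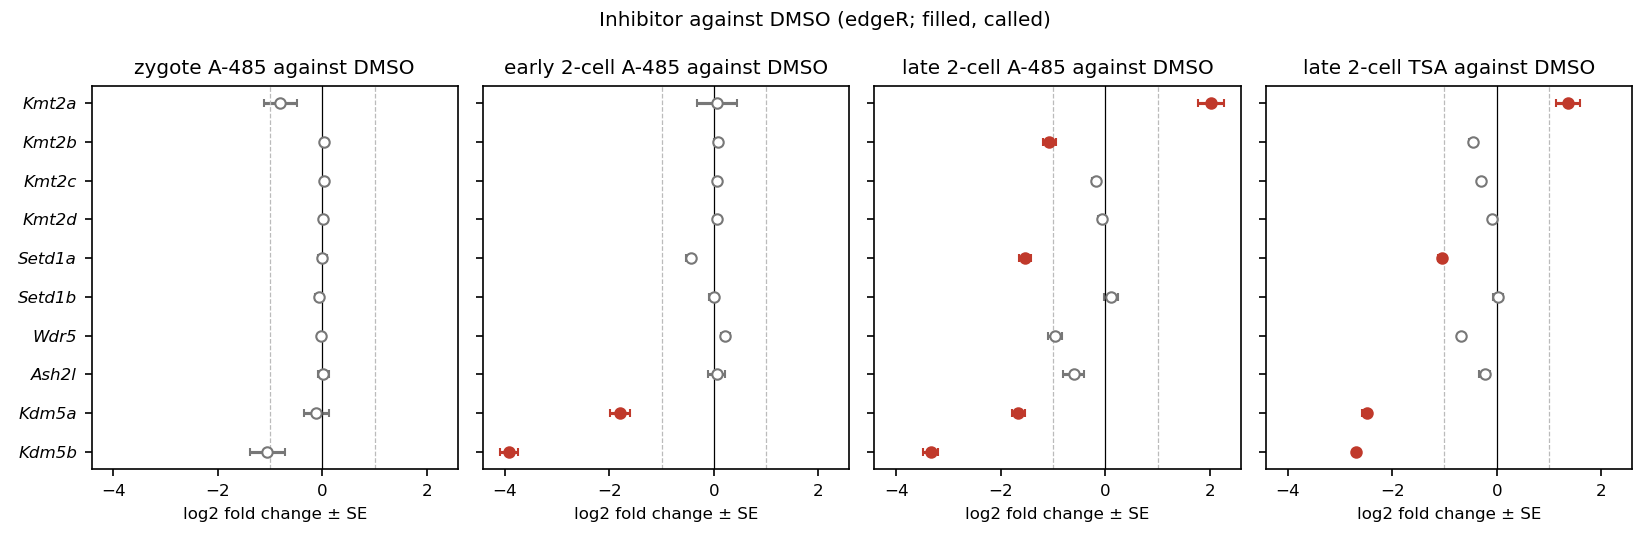
Log2 fold change of each member under A-485 at 3 stages and under TSA at the late 2-cell stage, each against its own DMSO group, with bars of 1 standard error and filled points for called genes. Kdm5a and Kdm5b lie below 0 in the 3 comparisons of 2-cell embryos, from -1.66 to -3.93, while Kmt2a lies above 0 in both late 2-cell comparisons, at 2.03 and 1.36.

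Late 2-cell embryos given TSA showed the same members called as under A-485 except Kmt2b. Of 10 members 3 were called lower and 1 higher, where 20.2% of all genes tested were called lower and 20.2% higher. Kdm5b measured 833 and 862 CPM under DMSO and 138 and 150.1 CPM under TSA, and was 6.43-fold lower (log2 fold change -2.68 ± 0.07 SE, adjusted p = 2.115e-09, edgeR). Kdm5a measured 275 and 302 CPM under DMSO and 58.1 and 54.2 CPM under TSA, and was 5.62-fold lower (-2.49 ± 0.08, adjusted p = 7.627e-09). The groups of both genes did not overlap. Among all genes tested, 3.78% had a lower log2 fold change under TSA than Kdm5b and 4.75% a lower one than Kdm5a.

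Setd1a measured 228 and 258 CPM under DMSO and 132 and 126 CPM under TSA, and was 2.07-fold lower (-1.05 ± 0.08 SE, adjusted p = 1.772e-06, edgeR). Kmt2a measured 17.9 and 10.0 CPM under DMSO and 39.2 and 39.8 CPM under TSA, and was 2.57-fold higher (1.36 ± 0.23, adjusted p = 0.0007545). Both genes stood near the 2-fold limit, and without DMSO replicate 2 of the TSA experiment their log2 fold changes were -0.97 and 1.00, so that 2 members were then called. Without TSA replicate 2 Setd1a was at -0.9961, also under the limit. Scaled on total counts, Setd1a fell by 0.69, and the median of all genes was 0.32.

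Wdr5 fell by 0.67 on the log2 scale under TSA, from 234 and 234 to 159 and 162 CPM (± 0.07 SE, adjusted p = 2.309e-05, edgeR). Kmt2b fell by 0.46, from 163 and 168 to 134 and 130.2 CPM (± 0.08, adjusted p = 0.0005703), which became -0.10 on total counts (adjusted p = 0.2994). Kmt2c fell by 0.31, from 2207 and 2204 to 1982 and 1923 CPM (± 0.04, adjusted p = 0.0001073), which became 0.05 on total counts (adjusted p = 0.3569). Kmt2d, Setd1b and Ash2l did not pass the test, with log2 fold changes of -0.08, 0.02 and -0.23. Each passed the edgeR test on another scaling, under the 2-fold limit. On total counts Kmt2d came to 0.27 (adjusted p = 0.0003837) and Setd1b to 0.37 (adjusted p = 0.009173), where the median of all genes was 0.32. On mitochondrial scaling Ash2l came to -0.41 (adjusted p = 0.04193). The oocyte markers summed to 725 to 749 FPKM under TSA and 559.9 to 576 under DMSO, and the markers of 2-cell embryos to 405 to 487 and 153 to 176. Among the oocyte markers Zp3 went against the sum, at 7.62 to 7.93 FPKM under TSA and 11.76 to 13.94 under DMSO. Of 6 markers of erythroid cells, 3 reached an FPKM of 1 in a TSA library and 3 were at 0, and their sum was 44.6 to 46.8 under TSA and 0.78 to 1.36 under DMSO. Of 6 fibroblast markers 2, Col1a1 and Thy1, reached an FPKM of 1 in a TSA library and 2, Dcn and Lum, were at 0, and their sum was 5.36 to 6.07 under TSA and 0.79 to 1.74 under DMSO. The mitochondrial share of counts was 3.66 and 3.72% under TSA and 2.71 and 2.39% under DMSO. The part of these values in the results was not tested.

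Whether the effects differed was tested directly by interaction contrasts in edgeR. For the A-485 effect at late 2-cell minus that at early 2-cell, 3 of 10 members were called lower and 1 higher, where 11.1% of all genes tested were called lower and 11.4% higher. The difference was -1.10 for Wdr5 (± 0.17 SE, adjusted p = 1.678e-05), -1.06 for Kmt2b (± 0.15, adjusted p = 1.058e-05), -1.0 for Setd1a (± 0.15, adjusted p = 2.329e-05) and 2.05 for Kmt2a (± 0.43, adjusted p = 0.0008448). These 4 genes thus responded to A-485 differently at the late stage, relative to a median difference of 0.22 over all genes. The size of the differences depended on the scaling: on total counts Wdr5, Kmt2b and Setd1a came to -0.98, -0.93 and -0.88, so that 1 member was called, and on mitochondrial scaling Kmt2a came to 0.97 (adjusted p = 0.09113), with 6 members called, all lower. Without late 2-cell A-485 replicate 1, Kmt2b came to -0.95 and Setd1a to -0.94, and 2 members were called, and without early 2-cell DMSO replicate 2 Setd1a came to -0.93. The Kmt2a difference ran from 1.49 to 2.83 over the 8 fits that left out a library and passed the test in each. Kdm5b had a difference of 0.66 (± 0.20, adjusted p = 0.01824), which turned to -0.39 on mitochondrial scaling. It passed the test in 3 of 8 fits that left out a library, with values from 0.20 without early 2-cell DMSO replicate 1 (adjusted p = 0.623) to 0.89 without early 2-cell DMSO replicate 2. The other losses came without early 2-cell A-485 replicate 2 (0.53), late 2-cell DMSO replicate 1 (0.54) or 2 (0.35) and late 2-cell A-485 replicate 1 (0.48). Kdm5a had a difference of 0.21 (± 0.19, adjusted p = 0.5283), which turned to -0.85.

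For the A-485 effect minus the TSA effect at the late 2-cell stage, no member was called, where 15.7% of all genes tested were called lower and 3.93% higher. The 2 demethylases differed in opposite directions by less than 2-fold. The A-485 effect on Kdm5b was below the TSA effect by a difference of -0.77 (± 0.15 SE, adjusted p = 0.001388, edgeR), whereas the Kdm5a difference was 0.72 (± 0.15, adjusted p = 0.001893), which became 0.03 on mitochondrial scaling. Kmt2b (-0.72, adjusted p = 0.001933) and Setd1a (-0.59, adjusted p = 0.006706) also passed the test under the 2-fold limit, the latter not without DMSO replicate 1 of the TSA experiment (adjusted p = 0.06505). The inhibitors were given over different hours and in separate experiments, and inhibitor, hours and experiment cannot be told apart in this contrast. On mitochondrial scaling 5 members were called, all lower.

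The 2 late 2-cell DMSO groups gauge how far the experiments differed. No member was called between them, where 0.208% of all genes tested were called lower and 1.82% higher in the TSA experiment. Over all genes, edgeR called 273 and DESeq2 called 302, and 2777 had an unadjusted p under 0.05. Kmt2b (-0.50, adjusted p = 0.01626), Setd1a (-0.42, adjusted p = 0.04176) and Kmt2d (-0.34, adjusted p = 0.04372) passed the test with lower levels in the TSA experiment, by less than 2-fold. Each of the 3 passed in 2 of 4 fits that left out a library. Without DMSO replicate 1 of the TSA experiment their adjusted p was 0.2032, 0.636 and 0.4943, and without its replicate 2 it was 0.1343, 0.1208 and 0.4337. On mitochondrial scaling Setd1a (0.05507) and Kmt2d (0.09995) also missed it. Kdm5b and Kdm5a had log2 differences of 0.15 and 0.18, and neither passed the test.

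The quantification also gave an effective length for each gene, a mean over its annotated transcripts weighted by the share of the gene's RNA molecules estimated for each. This length was not used to choose the members. For Kdm5b it was 7179 to 8277 bases in the 4 zygote libraries and 5594 to 6421 bases in the 12 libraries of 2-cell embryos, without overlap. The annotated protein-coding transcripts of Kdm5b are 8714 and 5413 bases long. Its other annotated transcripts, all with retained introns, have 4402, 2740, 2710 and 605 bases and also enter this mean. The zygote values rest on only 49 to 135 counts a library.

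For Kdm5a the effective length was 1368 to 3634 bases over all libraries, although its full-length protein-coding transcript has 10944 bases, so shorter annotated transcripts made up most of its estimated RNA molecules at every stage. These shorter transcripts are annotated as nonsense-mediated decay, retained intron or processed transcript, except a protein-coding one of 460 bases. The counts of Kdm5a are summed over all of its transcripts, so they do not measure the full-length coding RNA alone. The FPKM of Kdm5a rests on this effective length. Kmt2a varied most, between 3670 and 15966 bases, also between libraries of the same stage. Kmt2c, by contrast, stayed within 10146 to 10955 bases, though its longest annotated transcript has 14967 bases. Kmt2d lay at 8227 to 11204 bases, with a longest annotated transcript of 19823 bases. The FPKM of these 2 genes rests on such lengths as well. Kmt2a overlaps an annotated antisense gene, Setd1b a non-coding gene and Kdm5a the gene Ccdc77 on the opposite strand, and whether counting used strand is not given in the sources used here. Setd1a shares 14515 bases with another gene model on its own strand, Gm49388, and reads were divided between both, with a posterior SD of at most 2.88% of its count.

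**Figure D3:**
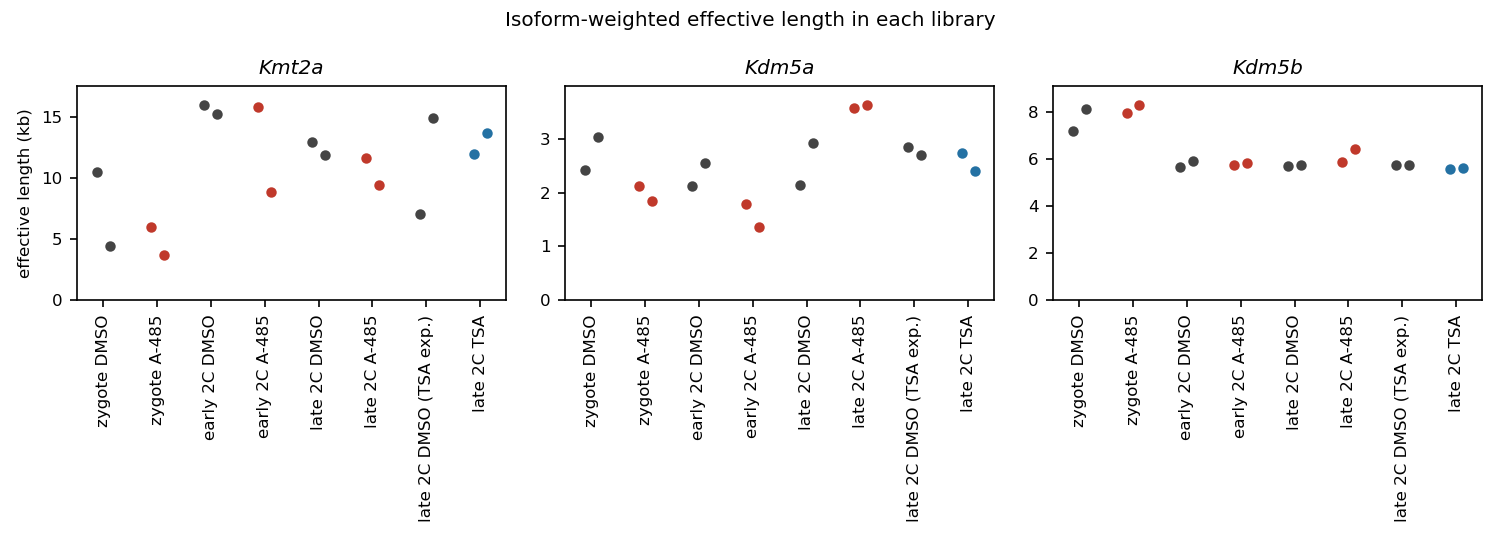
Effective length in kb of Kmt2a, Kdm5a and Kdm5b in the 16 RNA libraries, by group, with a point per library. Kdm5b is longer in zygotes (7179 to 8277 bases) than in 2-cell embryos (5594 to 6421 bases), and Kmt2a ranges from 3670 to 15966 bases.

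The other genes of the pathway were described in 4 lists, by their counts and their medians. At the late 2-cell stage under A-485, 3 of 15 subunits of the methyltransferase complexes were called lower and none higher, with a median log2 fold change of -0.33. Of 9 other demethylases and their corepressor partners 5 were called lower and none higher (median -1.12), and of 15 readers of methylated H3K4 8 were lower and none higher (median -1.04), where 23.8% of all genes tested were called lower and 15% higher. Of 8 other SET proteins linked to H3K4 2 were lower and 1 higher (median 0.60), with 6 at an FPKM of at least 1 in a group. The median of all genes in this comparison was 0.02. In zygotes none of the 4 lists held a called gene, and in early 2-cell embryos A-485 gave 1 lower gene in each list except the complex subunits, which had none, where 12.7% of all genes tested were called lower.

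Among subunits, Zfp335, a zinc finger protein that associates with MLL complexes, went from 63.4 and 69.8 CPM under DMSO to 4.41 and 4.87 CPM under A-485 at the late 2-cell stage (log2 fold change -3.87, adjusted p = 6.226e-08, edgeR). Bod1l, whose product associates with a SET1 complex, went from 954 and 843 to 78.9 and 85.2 CPM (-3.49, adjusted p = 3.976e-09). Among demethylases and partners, Rcor2, a corepressor partner of the demethylase KDM1A, went from 94.6 and 79.7 to 8.76 and 12.5 CPM (-3.07, adjusted p = 3.899e-07). Riox1, a JmjC-domain protein, went from 28.2 and 16.9 to 3.57 and 1.96 CPM (-3.07, adjusted p = 6.76e-05). None of these 4 genes overlapped between the groups. Kmt2e, a member of the MLL family without known methyltransferase activity, went the other way, from 16.7 and 15.8 to 43.9 and 37.6 CPM (1.29, adjusted p = 0.0004537), which became 0.31 on mitochondrial scaling (adjusted p = 0.3034).

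Under TSA 4 of 15 complex subunits, 5 of 9 demethylases and partners, 1 of 8 SET proteins and 7 of 15 readers were called lower, and 1 reader was called higher, where 20.2% of all genes tested were called lower and 20.2% higher. The medians were -0.19 for the subunits, -1.03 for the demethylases and partners, -0.03 for the SET proteins and -0.61 for the readers, and that of all genes was -0.03. Riox1 (-3.45, adjusted p = 4.794e-07, edgeR) and Bod1l (-3.42, adjusted p = 1.691e-08) were again low, with Bod1l at 912 and 1005 CPM under DMSO and 115 and 80.8 CPM under TSA. Ing4, a subunit of an acetyltransferase complex that binds trimethylated H3K4, fell from 9.03 and 10.3 to 1.44 and 0.65 CPM (-3.33, adjusted p = 3.712e-05). Ing2, a reader in a deacetylase complex, rose from 19.5 and 21.5 to 59.3 and 58.0 CPM (1.39, adjusted p = 5.072e-06). Pagr1a was also called lower, but it overlaps the gene model Pagr1b and its counts are fractional, so its value is uncertain and no fold is given.

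At the early 2-cell stage the genes called lower under A-485 were Ing1, Prdm9 and Rcor2. Ing1, a reader that also works in a deacetylase complex, went from 58.2 and 58.0 to 18.4 and 20.99 CPM (log2 fold change -1.62, adjusted p = 5.489e-06, edgeR). Prdm9, the methyltransferase of meiotic recombination sites, went from 8.45 and 5.63 to 2.7 and 3.27 CPM (-1.30, adjusted p = 0.02756). The Prdm9 call was lost without DMSO replicate 1 (-0.96, adjusted p = 0.2363) or A-485 replicate 1 (-1.17, adjusted p = 0.09538). Rcor2 went from 23.6 and 24.7 to 12.5 and 11.99 CPM (-1.04, adjusted p = 0.001922). None of the 3 overlapped between the groups.

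**Figure D4:**
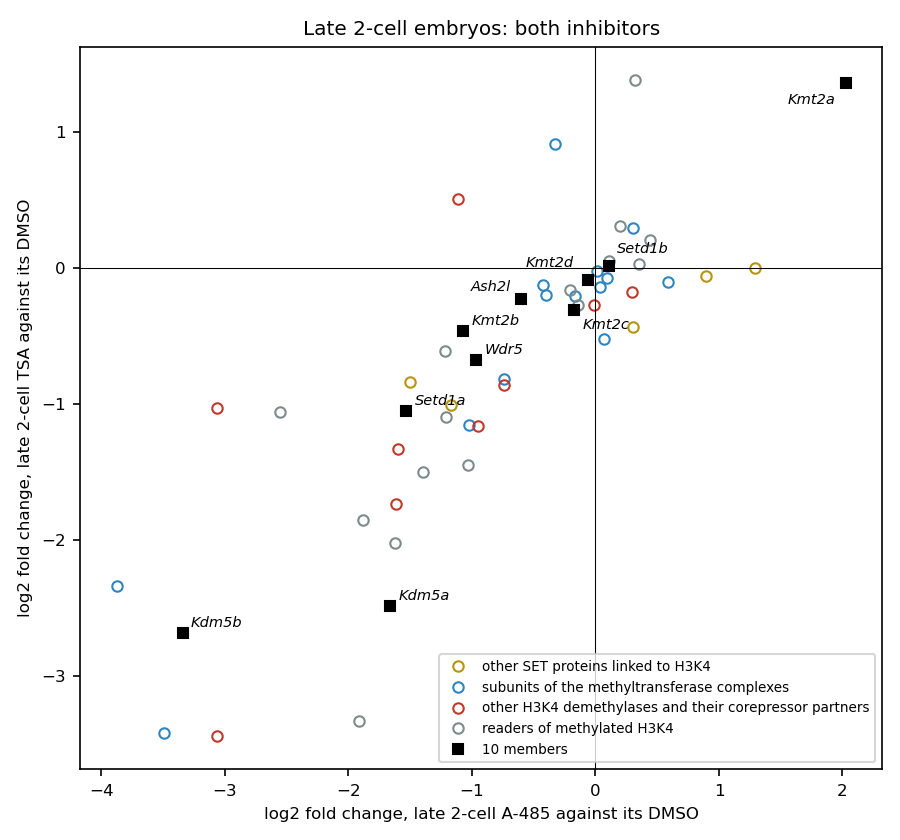
Log2 fold changes of the members and of genes of the 4 lists, 53 of 57 genes in all, under A-485 (x axis) and TSA (y axis) in late 2-cell embryos, each against its own DMSO group. Pagr1a, whose counts are uncertain, and Smyd1, Smyd2 and Setd7, under an FPKM of 1 in a comparison, are left out. Kdm5b (-3.34 and -2.68) and Bod1l (-3.49 and -3.42) lie at the lower left, and Kmt2a (2.03 and 1.36) lies at the upper right.

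Open chromatin was measured by ATAC-seq at the late 1-cell and the early 2-cell stage, in embryos of the same cross given A-485 or DMSO. The authors called peaks over the 2 replicates together, giving 1 list per group of 10214 peaks for late 1-cell DMSO, 7094 for late 1-cell A-485, 27693 for early 2-cell DMSO and 13712 for early 2-cell A-485. No test between groups is possible on these lists, since each is 1 list. A member was counted as having a promoter peak when a peak overlapped the 1 kb on either side of an annotated transcript start.

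In late 1-cell embryos 2 of 10 members had a promoter peak under DMSO, Setd1a and Ash2l, and 2 under A-485, Kmt2c and Kdm5a. The shares among expressed protein-coding genes were 43.9% and 42.8%. In early 2-cell embryos 4 members had one under DMSO, namely Kmt2b, Setd1a, Kdm5b and Ash2l, and 8 under A-485, where the shares of expressed genes were 54.6% and 66.1%. Kmt2a and Kmt2d had none in any list. The 4 that were listed under A-485 and not under DMSO at this stage were Kmt2c, Setd1b, Kdm5a and Wdr5.

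The peaks at the 2 demethylase genes can be set beside their RNA. At Kdm5b, whose RNA was 15.2-fold lower under A-485 at this stage, a peak was listed under both treatments, at chr1:134559997-134560560 (GRCm38) with a fold enrichment of 5.29 under DMSO and at chr1:134559975-134560385 with 5.88 under A-485. Both overlap the promoter sequence printed above. At Kdm5a the peaks were listed only under A-485, at chr6:120363934-120364641 with a fold enrichment of 6.96 in late 1-cell embryos and at chr6:120363597-120364697 with 10.5 in early 2-cell embryos. In the DMSO lists the peak nearest to a Kdm5a start lay 6471 bases away in late 1-cell and 2018 bases away in early 2-cell embryos, and 4 other peaks were listed within the gene in the latter. Fold enrichments are not normalised between lists.

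At Setd1a the fold enrichment was 4.98 in late 1-cell DMSO, 5.87 in early 2-cell DMSO and 6.96 in early 2-cell A-485 embryos. These were different intervals, at chr7:127776499-127776704, chr7:127776828-127777386 and chr7:127776499-127777425. The 2 DMSO peaks do not overlap, and the A-485 peak spans the whole of both. Ash2l had 2 promoter peaks in each of the same lists, at different starts. At the start of the early 2-cell DMSO peak chr8:25847460-25847980 the fold enrichments were 6.12, 9.08 and 10.4. At the start of the late 1-cell DMSO peak chr8:25840488-25841043 they were 6.99, 7.3 and 5.83. At Kmt2b it was 8.63 under DMSO and 7.38 under A-485 in early 2-cell embryos. Among early 2-cell DMSO peaks 7.89% were weaker than that of Kdm5b and 14.4% weaker than that of Setd1a. Among early 2-cell A-485 peaks 15.9% were weaker than that of Kdm5b, 36.9% weaker than that of Setd1a and 86.7% weaker than that of Kdm5a. When each list was reduced to the 7094 strongest peaks, the number of members with a peak was 1 in late 1-cell DMSO, 0 in early 2-cell DMSO and 2 in early 2-cell A-485 embryos.

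**Figure D5:**
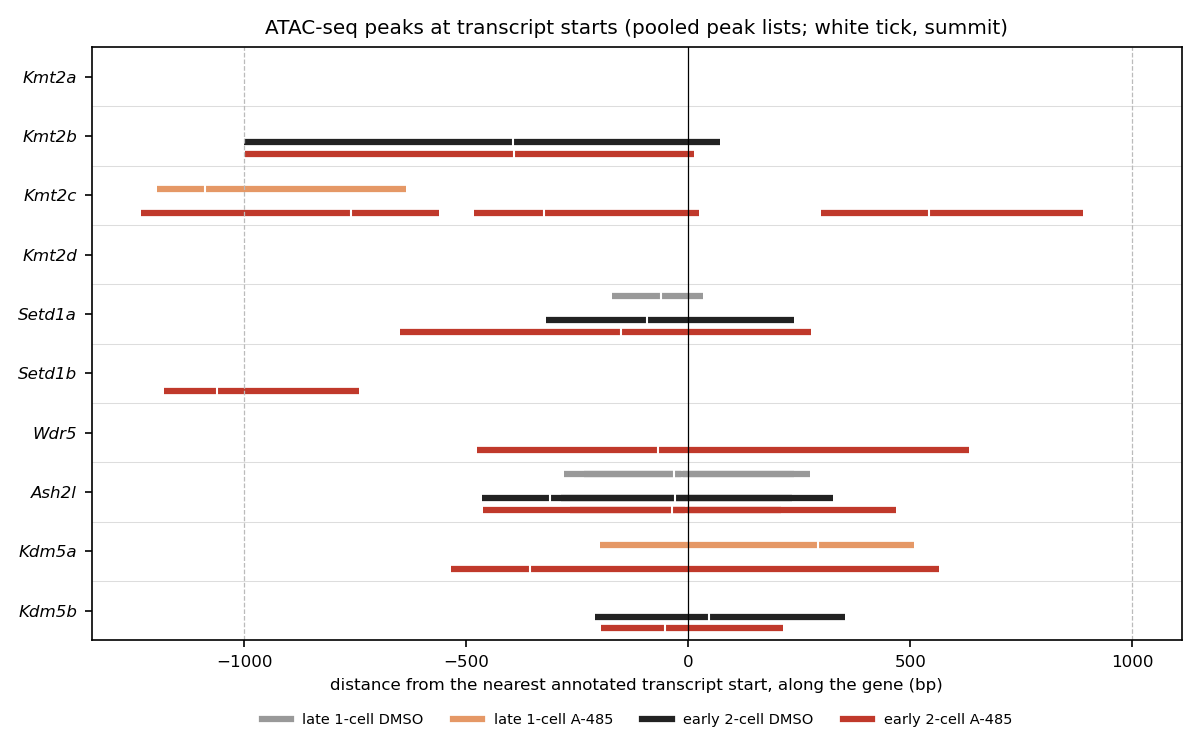
Peaks listed within the region around the transcript starts of the members in the 4 ATAC-seq lists, as distance in bases from the nearest start, with 1 row per member, a bar per peak and a white tick at its summit. Early 2-cell A-485 embryos have a peak at 8 of 10 members and early 2-cell DMSO embryos at 4, and the Kmt2a and Kmt2d rows are empty.

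RefSeq promoter entries were matched for 6 of 10 members (Kmt2a, Kmt2c, Kmt2d, Setd1a, Kdm5b and Wdr5). Kmt2b, Setd1b, Kdm5a and Ash2l had no entry. Over the 250 bases before the start, Kdm5b and Wdr5 each had 54.4% G and C, with 13 and 12 CpG pairs, and Kmt2d had 67.6% with 26. Kmt2c was the richest at 91.6% with 48 pairs, where the median over all 32536 promoters was 52.4% with 6 pairs. The GC box GGGCGG, searched on both strands, was found in 5 of 6 members and in 33.0% of all promoters. The letters CCAAT (33.8% of all promoters), TATAAA (12.3%), AGGTCA (14.0%) and GGATTA (6.25%) were found in none of the 6, and CCGGAA (12.1%) was found in 1, Kmt2a.

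The genes nearest in pattern to each member were those with the highest Pearson correlation of log2(FPKM + 0.1) over the 8 group means, among 19715 genes, given as a description since the groups share stages and many genes follow them. For Kdm5b they were Impdh2 (r = 0.9985), an enzyme of guanine nucleotide synthesis, and Pou6f1 (r = 0.9969), a POU transcription factor. For Kdm5a they were Syncrip (r = 0.9973), an RNA-binding protein, and Sat1 (r = 0.9968), an enzyme of polyamine catabolism. For Setd1a they were Glod5 (r = 0.9897), which is listed at 0 in 5 of the 8 groups, and the ribosomal protein gene Rpl15 (r = 0.9846).

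For the other members the nearest were Egln1 and Fgr (Kmt2b), Ssu72 and Nup62 (Kmt2c), Rnf19a and D930020B18Rik (Kmt2d), Mtss1l and C87198 (Setd1b), Rnf40 and Lrrc59 (Wdr5), Fkbp2 and Gtpbp8 (Ash2l), and Tctex1d2 and Gm47942 (Kmt2a). Of the 20 genes, 17 stayed among the nearest 2 with a pseudocount of 1. Between members, the same correlation was highest for Kdm5a with Kdm5b (r = 0.9687) and lowest for Kdm5a with Setd1b (r = -0.8816).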

How the data were processed

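Total RNA of 16 libraries was prepared with a stranded SMART-Seq kit. The authors removed leading bases and adaptors (Trimmomatic 0.39), mapped to GRCm38 with STAR 2.7.8a and quantified genes with RSEM 1.3.1, 1 library per table. The deposited tables hold an expected count, a TPM and an FPKM per gene, with an effective length. The deposited ATAC-seq lists of the ENCODE pipeline hold, per peak, a fold enrichment (a ratio), a −log10 q-value and a score, for both replicates together. TPM served only as an alternative measure of levels, and score values were not used.

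Expected counts were rounded and tested in edgeR 4.0.16 (R 4.3.3) by quasi-likelihood, with TMM scaling and genes of at least 10 summed counts, on the groups compared only. Benjamini-Hochberg adjustment ran over all genes tested, and the code was tested on simulated data. The peak file positions were moved to 1-based coordinates. Gene identifiers were matched to GENCODE M21 (55144 of 55385, 54487 with their version). Members, lists and comparisons were chosen with earlier results of these data known. The text names all 10 members, and of the 4 lists the called genes of each inhibitor comparison with the largest changes (at most 4 per direction), and for each member the 2 genes nearest in pattern. Alternatives were DESeq2 1.42.0, scaling on total or mitochondrial counts, other filters and limits, each replicate left out, and the replicate number as a block. Depth per library limits low genes such as Kdm5b in zygotes. H3K27ac profiles were not analysed here.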

Additional observations from a re-analysis of the deposited data

Results flagged for a closer look

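For 4 members the response to A-485 differed between the late and early 2-cell stages by a test of the difference itself, an interaction contrast in edgeR. As late minus early log2 fold change, the difference was 2.05 for Kmt2a, -1.06 for Kmt2b, -1.0 for Setd1a and -1.10 for Wdr5. Kmt2a had a log2 fold change of 0.06 at the early stage, from -0.75 to 0.57 when 1 library was left out, and 2.03 at the late stage, while Kmt2b had 0.07 and -1.07, Setd1a -0.45 and -1.53, and Wdr5 0.22 and -0.97. The inhibitor was withdrawn at 20 hpi. Stage, time since withdrawal and any difference of batch between the early and late libraries cannot be told apart.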

How the results depend on the processing

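Every number of called members stayed within 1.5 times its value under DESeq2, and so did 133 of 152 such numbers over all alternatives. The exceptions were these. With mitochondrial scaling 9 members were called for A-485 at late 2-cell, 7 for early 2-cell against zygote, 7 for late 2-cell against zygote and 5 for A-485 minus TSA. On total counts 1 was called for late minus early A-485. Without the 2-fold limit the numbers were 7 for TSA, 9, 7 and 8 for the stage steps early against zygote, late against early and late against zygote, 3 between the DMSO groups and 4 for A-485 minus TSA. With equally long peak lists 1, 0 and 2 members had a promoter peak under DMSO at late 1-cell, under DMSO at early 2-cell and under A-485 at early 2-cell, and with the summit required inside the window 1 did in late 1-cell A-485 embryos. With TPM in place of FPKM, the ratio of the highest to the lowest group mean moved by more than 1.5 times for 6 members.

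Leaving out each replicate in turn gave 0 to 1 members called for A-485 in zygotes, 2 to 4 for TSA and 2 to 4 for late minus early A-485. An arm with 1 library is then assumed to vary like the others.

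Directions turned as follows. On mitochondrial scaling Setd1b became -0.87 for A-485 at late 2-cell. Early 2-cell against zygote, Kmt2c became -0.65, Kmt2d -0.83 and Setd1a -0.71, and late against zygote Kmt2c -0.79 and Kmt2d -0.99. In late minus early A-485, Setd1b became -0.86, Kdm5a -0.85 and Kdm5b -0.39, and in A-485 minus TSA Kmt2c -0.66. On total counts Kmt2c and Kmt2d under TSA became 0.0492 and 0.27. With the DMSO group of the TSA experiment, Kmt2b became -0.37 for late against early 2-cell and Kmt2d -0.0433 for late 2-cell against zygote. The mitochondrial values follow from that scaling, under which the median of all genes was -0.96, -1.45 and -1.36 for A-485 at late 2-cell, early 2-cell against zygote and late 2-cell against zygote, and 0.02, -0.12 and -0.06 without it. The other causes were not tested.

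Replicate numbers are shared between groups, but deviations of same-numbered libraries correlated at only -0.05 to 0.14, with 2 pairs, so the numbers are not taken as pairs. With the number as a replicate block the called members were 0, 2 and 5 for A-485 by stage and 4 for TSA, as without it. Over all genes the block moved the calls from 13 to 39 in zygotes and from 273 to 445 between the DMSO groups.

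With 2 libraries a group, small changes of the rarest members cannot be told from spread, and Kmt2a calls in DMSO embryos and zygotes depend on which libraries are kept.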
